A study of Mus musculus with 6 samples.

Results

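The genes of the transcription factor AP-1 were followed in mouse aorta by RNA sequencing. The members were chosen by name and are the 4 Fos family genes Fos, Fosb, Fosl1 and Fosl2, the 3 Jun family genes Jun, Junb and Jund, and the related genes Atf3, Batf and Maff. All 10 symbols matched a single Ensembl ID in a table of 55401 IDs, and all 10 were among the 19833 genes that passed the filter on low counts. One group was aortas of IL16-/-ApoE-/- mice, called double mutants here, and the other was aortas of ApoE-/- mice, written Apo-/- in the sample titles. Both groups lacked apolipoprotein E, which clears remnant lipoproteins from blood, and both had received a high-fat diet for 24 weeks starting at 8 weeks of age. The double mutants also lacked interleukin-16, a secreted ligand of CD4. Each group had 3 libraries, numbered 1 to 3 in the titles, and the comparison asked how the loss of interleukin-16 alters aortic gene expression after that diet. The labels give neither sex nor pooling, and they do not say whether a library is a separate animal, so the p-values below measure the spread between libraries, which may be technical. The deleted parts of Il16 and Apoe are likewise not given in the sources used here.

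AP-1 is a pair of basic leucine zipper proteins that bind DNA together. Jun proteins can pair with each other or with a Fos protein, whereas Fos proteins need a Jun partner. Fos, Fosb, Jun, Junb and Atf3 are classical immediate early genes, whose transcripts appear within minutes of a growth factor, cytokine, mechanical or tissue handling stimulus and decay quickly, while Jund is known for steadier expression. In the vessel wall AP-1 is known for its part in smooth muscle growth, inflammation and matrix protease genes.

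The RefSeq promoters of GRCm38.p6 held 9 of the 10 members, with 11 promoters in all. In counts scaled by library size, every double mutant library lay above every ApoE-/- library in Fos, Junb and Atf3, while the groups overlapped in Jun. The 250 bases before the start site are shown for these members. Each runs 5′ to 3′ towards the start site, and capitals mark matches to the motifs named in the next paragraph.
Fos, chr12:85473640-85473889, plus strand: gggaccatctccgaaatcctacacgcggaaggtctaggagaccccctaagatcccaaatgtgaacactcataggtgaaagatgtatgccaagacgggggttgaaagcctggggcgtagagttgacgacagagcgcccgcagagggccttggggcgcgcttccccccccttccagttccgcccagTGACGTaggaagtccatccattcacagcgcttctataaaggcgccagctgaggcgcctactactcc
Junb, chr8:84978749-84978998, minus strand: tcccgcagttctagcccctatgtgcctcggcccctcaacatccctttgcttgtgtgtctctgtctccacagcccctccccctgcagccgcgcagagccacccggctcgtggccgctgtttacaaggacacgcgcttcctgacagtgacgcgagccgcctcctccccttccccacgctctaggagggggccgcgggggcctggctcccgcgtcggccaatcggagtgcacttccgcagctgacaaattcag
Atf3, chr1:191183334-191183583, minus strand: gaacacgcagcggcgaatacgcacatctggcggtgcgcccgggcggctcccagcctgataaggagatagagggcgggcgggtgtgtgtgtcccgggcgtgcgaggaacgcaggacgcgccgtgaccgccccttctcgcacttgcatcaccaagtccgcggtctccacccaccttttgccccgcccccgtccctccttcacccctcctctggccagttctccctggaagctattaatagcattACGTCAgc
Jun, chr4:95052223-95052472, minus strand: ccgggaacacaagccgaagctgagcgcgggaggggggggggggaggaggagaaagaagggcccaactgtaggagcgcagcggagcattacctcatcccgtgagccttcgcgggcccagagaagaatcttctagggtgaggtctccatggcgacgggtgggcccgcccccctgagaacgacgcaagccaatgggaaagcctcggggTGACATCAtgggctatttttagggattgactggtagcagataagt

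The motifs searched on both strands were TGANTCA, the element AP-1 itself binds, TGACGTCA, the cyclic AMP response element, its core TGACGT, the Jun promoter element TGACATCA, and the CArG box bound by serum response factor. TGACGT lies within TGACGTCA, and TGACGT and TGACATCA were added after the sequences had been looked at. TGACGT was found in 4 of the 11 promoters, 1 each of Fos, Atf3, Batf and Maff, and in 6.47% of 32851 RefSeq promoters of the same length. In Fos it lay at -66 to -61 from the start site, and in Atf3, on the other strand, at -8 to -3. The longer TGACGTCA was in 1 of the 11, a Maff promoter, and in 1.55% of all. TGACATCA was in 2 of the 11, Jun at -45 to -38 and a Maff promoter, and in 2.93% of all. TGANTCA was in 0 of the 11 and in 6.75% of all, and the CArG box in 0 of the 11 and in 1.47% of all. The Atf3 window lies inside the Atf3 span of GENCODE, which also holds a transcript with a start farther upstream. These are matches of letters within this window, not measured binding. Elements farther upstream or past the start site were not searched, so an absence here does not extend to them.

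The double mutant libraries held 42861980 to 47208779 counts and the ApoE-/- libraries 65730552 to 85568269. Levels below are counts divided by TMM-scaled library size (CPM), unless given per transcript length (TPM). Libraries of the ApoE-/- group varied more, with a biological coefficient of variation over tested genes of 0.209 in double mutants and 0.590 in ApoE-/-. ApoE-/- 1 alone had a female pattern, with 474 CPM of Xist and 0.143 CPM of the Y-linked Ddx3y. Xist did not exceed 5.52 CPM in the double mutants and 6.21 CPM in the other ApoE-/- libraries. Of the targeted genes, Il16 still gave 7.93, 12.1 and 12.2 CPM across the double mutant libraries, against 28.3, 28.7 and 15.1 CPM across ApoE-/- 1, 2 and 3, with no overlap but without passing the test (edgeR log2 fold change -1.16, SE 0.32, adjusted p = 0.163). Apoe was read in every library, at 137 to 183 CPM in double mutants and 20.9 to 45.0 CPM in ApoE-/- (2.34, SE 0.33, adjusted p = 0.0369). As the deleted parts are not known here, neither gene checks the labels. Kidney tubule markers were present almost only in the double mutants. The 8 markers summed to 472 to 525 CPM there and 0.385 to 1.28 CPM in ApoE-/-, 7 of the 8 passed the test as higher, and Umod, Slc12a1, Kap, Miox and Slc22a12 had no count in any ApoE-/- library. The 6 smooth muscle markers were all detected and summed to 8410 to 9540 CPM in the double mutants and to 4220, 18500 and 26800 CPM in ApoE-/- 1, 2 and 3. In bulk tissue, fewer cells of a type and less RNA per cell cannot be told apart.

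Of the 10 members, 1 rose in the double mutants, Fos, and 0 fell. Across all 19833 genes 1.14% rose and 0.0605% fell, in edgeR's quasi-likelihood test at an adjusted p below 0.05. All double mutant libraries lay above all ApoE-/- libraries in 3 members (14.9% of all genes did so) and below them in 2 (11.5% of all genes), so 5 of 10 did not overlap, against 26.4% of all genes. An unadjusted p below 0.05 was reached by 3 members in the upward direction, against 8.87% of all genes, and by 0 in the downward direction, against 7.03%. The median log2 fold change of the 10 was 0.21, against -0.05 over all genes. The members were chosen with earlier results of these data known, so these shares are a description and no independent result.

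**Figure D1:**
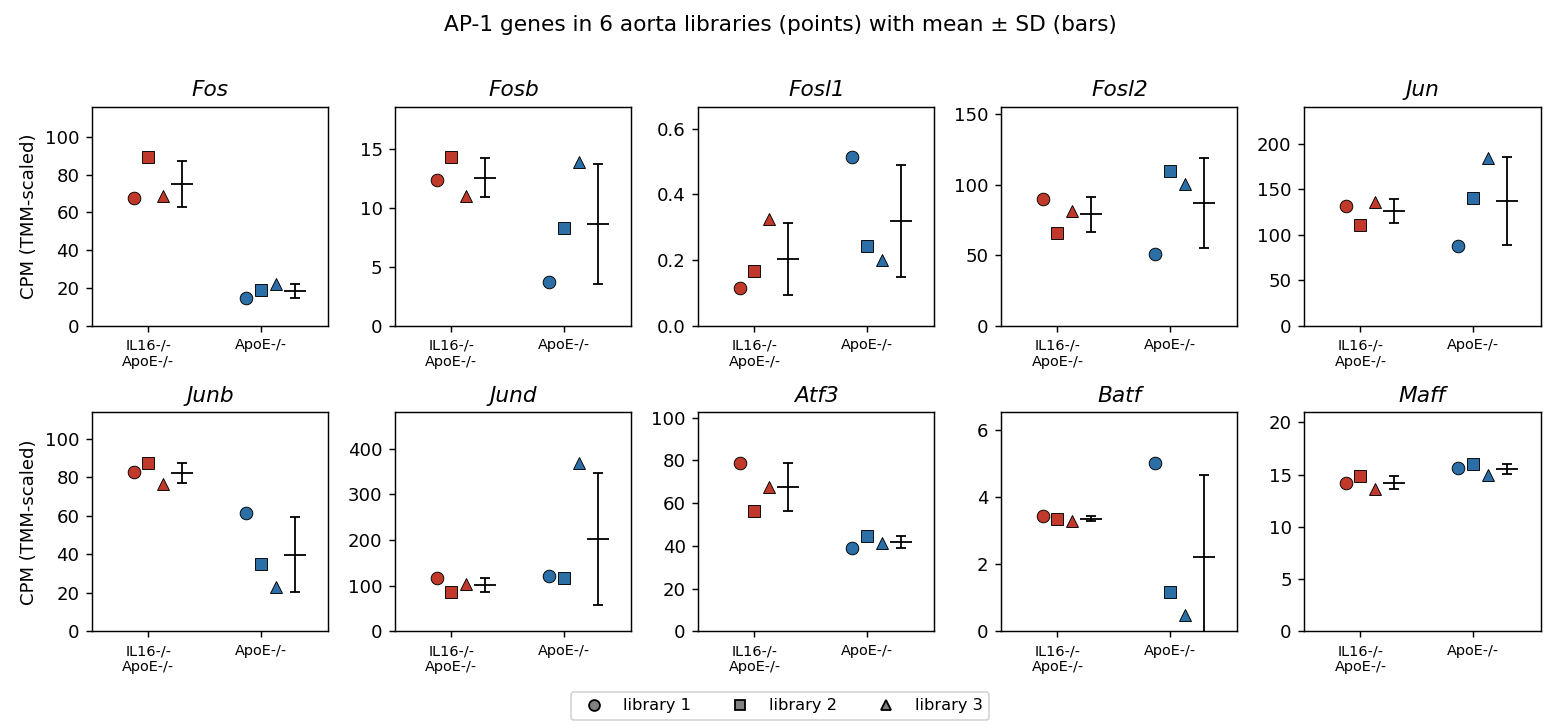
TMM-scaled CPM of the 10 AP-1 genes in each library, with double mutants in red at the left and ApoE-/- in blue at the right of each panel; the symbol shape is the library number and the black bars are mean ± SD (n = 3; the lower end for Batf in ApoE-/- is below 0 and is not drawn). Fos at 67.5 to 89.1 CPM in double mutants stands clear of 14.7 to 22.0 CPM in ApoE-/-, whereas Jund is high in ApoE-/- 3 alone.

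Among the Fos family, Fos was the member that changed. Fos encodes the prototype partner of Jun and is the founding immediate early gene. It lies on GRCm38 chromosome 12, 85473890 to 85477273, plus strand, in 4 exons (ENSMUSG00000021250). It was at 67.5, 89.1 and 68.5 CPM across double mutants 1, 2 and 3, from 2931, 4245 and 2945 counts, against 14.7, 18.9 and 22.0 CPM in ApoE-/- 1, 2 and 3, from 1234, 1321 and 1772 counts. The lowest double mutant library thus lay above the highest ApoE-/- library, and the raw counts did not overlap either, although the double mutant libraries were the shallower ones. The means were 75.1 ± 12.2 CPM in double mutants and 18.6 ± 3.66 CPM in ApoE-/- (SD, n = 3 each), a 4.04-fold difference. The log2 fold change was 2.02 (SE 0.21, 95% interval 1.51 to 2.52, edgeR adjusted p = 0.0203), and Fos ranked 40 by p among all genes tested. Over the 16 alternative fits the log2 fold change ran from 1.87 to 2.15. The call was lost without ApoE-/- 2 (adjusted p = 0.0653), without any 1 of the double mutant libraries (0.137 to 0.159) and with the replicate number as a block (0.179). Without any 1 double mutant library 0 of all genes passed, with 1920 to 2042 at an unadjusted p below 0.05. As with Fos, the summed kidney tubule markers above did not overlap between the groups and were higher in the double mutants, and the same held for 6 other marker lists. Cardiac muscle markers summed to 198 to 395 CPM in double mutants and 26.3 to 80.2 CPM in ApoE-/- (1 of 6 passed, Tnnt2, and Nppa had no count in ApoE-/- 2). Skeletal muscle markers summed to 37.3 to 284 CPM in double mutants and 5.61 to 22.5 CPM in ApoE-/- (0 of 6 passed, and Myh1 had no count in ApoE-/- 2 and 3, nor Myh4 in ApoE-/- 2). Red cell markers summed to 5010 to 13400 CPM in double mutants and 1040 to 4700 CPM in ApoE-/- (0 of 5 passed). Those of Schwann cells, endothelium and B cells are given further on. The part of these tissues and cells in the Fos result was not tested.

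Fosb, an immediate early gene induced much as Fos is, is on chromosome 7, 19302696 to 19310051. Its level was 12.4, 14.3 and 11.0 CPM across double mutants 1, 2 and 3, against 3.71, 8.26 and 13.9 CPM in ApoE-/- 1, 2 and 3. ApoE-/- 3 lay inside the double mutant range, and the log2 fold change was 0.54 (95% interval -0.55 to 1.64, edgeR adjusted p = 0.582). Fosl2, which encodes Fra-2 and is on chromosome 5, 32135801 to 32157842, was at 89.7, 65.6 and 81.7 CPM in the double mutants against 50.7, 110 and 101 CPM in ApoE-/-. The groups overlapped, with the lowest and the highest library both in ApoE-/- (log2 fold change -0.15, 95% interval -0.89 to 0.60, edgeR adjusted p = 0.832). Fosl1 (chromosome 19, 5447547 to 5455946), which encodes Fra-1 and is known for induction in growing and migrating cells, was near the limit of detection with 5, 8 and 14 counts in the double mutants and 43, 17 and 16 counts in ApoE-/-. At 0.115 to 0.326 CPM in double mutants and 0.199 to 0.513 CPM in ApoE-/-, it stood above the floor of 3 counts that no reads would still allow, at most 0.0698 CPM in a double mutant library and 0.0430 CPM in an ApoE-/- library. These floors cover counting error only. Its fold change had a wide interval (log2 -0.65, 95% interval -2.45 to 1.15, edgeR adjusted p = 0.688). The Fosl1 locus overlaps Ccdc85b on the other strand by 2767 bases. Ccdc85b held 895 to 1074 counts in double mutants and 1162 to 4851 in ApoE-/-, and without the strand setting of the counting the reads of such a pair cannot be told apart.

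The Jun family held fold changes of both signs, and none of its 3 genes passed the test over all genes with all libraries in. All 3 are genes of a single exon. Junb, a Jun protein that can restrain growth, is on chromosome 8, 84974484 to 84978718. It was at 82.7, 87.5 and 76.8 CPM across double mutants 1, 2 and 3, against 61.4, 35.0 and 23.3 CPM in ApoE-/- 1, 2 and 3. The groups did not overlap, and ApoE-/- 1 was the nearest to the double mutants. The mean was 2.06-fold higher in double mutants (82.3 ± 5.34 CPM, against 39.9 ± 19.5 CPM in ApoE-/-, SD, n = 3 each), with a log2 fold change of 1.04 (SE 0.35, 95% interval 0.21 to 1.87, edgeR adjusted p = 0.233). Without ApoE-/- 1 it was 1.50 (SE 0.19, edgeR adjusted p = 0.00508), and with all libraries in, limma-voom with sample weights gave 1.25 (adjusted p = 0.00968). Junb passed in only these 2 of the 16 alternatives, and over all 16 its log2 fold change ran from 0.77 to 1.50.

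Jun, the founding member and the strongest activator of its family, is on chromosome 4, 95049034 to 95052222. It was at 132, 111 and 136 CPM across double mutants 1, 2 and 3, against 87.3, 140 and 184 CPM in ApoE-/- 1, 2 and 3. All double mutant libraries lay within the ApoE-/- range, and the log2 fold change was -0.12 (95% interval -0.80 to 0.57, edgeR adjusted p = 0.862). An increase of the size seen in Fos lies outside that interval. Jund, the Jun gene known for steadier expression, is on chromosome 8, 70698949 to 70700616. Here it was at 116, 86.5 and 104 CPM in double mutants against 122, 117 and 369 CPM in ApoE-/- 1, 2 and 3. Every ApoE-/- library was above every double mutant library, but ApoE-/- 1 and 2 by little and ApoE-/- 3 by far. The log2 fold change was -0.99 (95% interval -2.14 to 0.16, edgeR adjusted p = 0.371) with all libraries and -0.23 without ApoE-/- 3. Genes annotated on the strand opposite to these 3 were Junos for Jun (689 bases of overlap), Prdx2 for Junb (351 bases) and Gm11175 for Jund (919 bases). Junos held 12 to 41 counts in double mutants and 24 to 73 in ApoE-/-, and Gm11175 0 to 4 in double mutants and 3 to 34 in ApoE-/-, far below Jun and Jund. Prdx2, at 117 to 123 CPM in double mutants and 83.0 to 122 CPM in ApoE-/-, was above Junb in every library.

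Atf3, Batf and Maff stand beside the Fos and Jun families. Atf3, a stress-induced repressor that pairs with Jun proteins, is on chromosome 1, 191170296 to 191218039. It was at 78.8, 56.3 and 67.4 CPM across double mutants 1, 2 and 3, against 38.9, 44.7 and 41.5 CPM in ApoE-/- 1, 2 and 3. In CPM the groups did not overlap, and here the ApoE-/- libraries were the closer together of the 2 groups. Per transcript length neither held. The ranges were 44.5 to 60.9 TPM in double mutants and 30.6 to 47.6 TPM in ApoE-/-. The coefficient of variation was then 15.6% in double mutants and 23.7% in ApoE-/-. The mean was 1.62-fold higher in double mutants, 67.5 ± 11.2 CPM against 41.7 ± 2.90 CPM in ApoE-/- (SD, n = 3 each), with a log2 fold change of 0.69 (SE 0.17, 95% interval 0.29 to 1.09). This did not pass over all genes (edgeR adjusted p = 0.124) but did in DESeq2 (log2 fold change 0.70, adjusted p = 0.0110) and without ApoE-/- 1 (0.64, edgeR adjusted p = 0.0344). Atf3 passed in only these 2 of the 16 alternatives, and over all 16 its log2 fold change ran from 0.57 to 0.81.

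Batf, a lymphoid AP-1 factor needed for some helper T cell and B cell programmes, lies 209 kb from Fos on chromosome 12 (85686669 to 85709087). It was at 3.43, 3.36 and 3.30 CPM in the double mutants against 5.02, 1.16 and 0.485 CPM in ApoE-/- 1, 2 and 3. The double mutant libraries were nearly equal, and those of ApoE-/- lay on both sides of them. The log2 fold change was 0.60 (95% interval -1.34 to 2.53, edgeR adjusted p = 0.734) and 2.03 without ApoE-/- 1 (SE 0.47, edgeR adjusted p = 0.0269). Batf passed in only this 1 of the 16 alternatives. The 6 T cell markers, of which Cd3d had no count in ApoE-/- 3, summed to 34.6 to 36.3 CPM in double mutants and to 37.7, 24.0 and 2.67 CPM in ApoE-/- 1, 2 and 3, the same order of ApoE-/- libraries as Batf. The 4 B cell markers summed to 12.8 to 29.6 CPM in double mutants against 11.0, 5.35 and 2.41 CPM in ApoE-/- 1, 2 and 3. The 6 macrophage markers summed to 4380 to 6230 CPM in double mutants against 4650, 2270 and 371 CPM in ApoE-/- 1, 2 and 3, and 0 of the markers of these 3 cell types passed the test. That order of ApoE-/- libraries was not particular to these cells. It also held for the marker sums of endothelium, neutrophils, adipocytes and kidney tubule. The part of all these cells in the Batf and Junb values was not tested. Maff, a small Maf protein without an activation domain, is on chromosome 15, 79346621 to 79359076. Its mean was 14.2 ± 0.636 CPM in double mutants and 15.6 ± 0.507 CPM in ApoE-/- (SD, n = 3 each). The libraries of the groups did not overlap, yet the difference was small (log2 fold change -0.13, SE 0.15, 95% interval -0.49 to 0.23, edgeR adjusted p = 0.692).

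**Figure D2:**
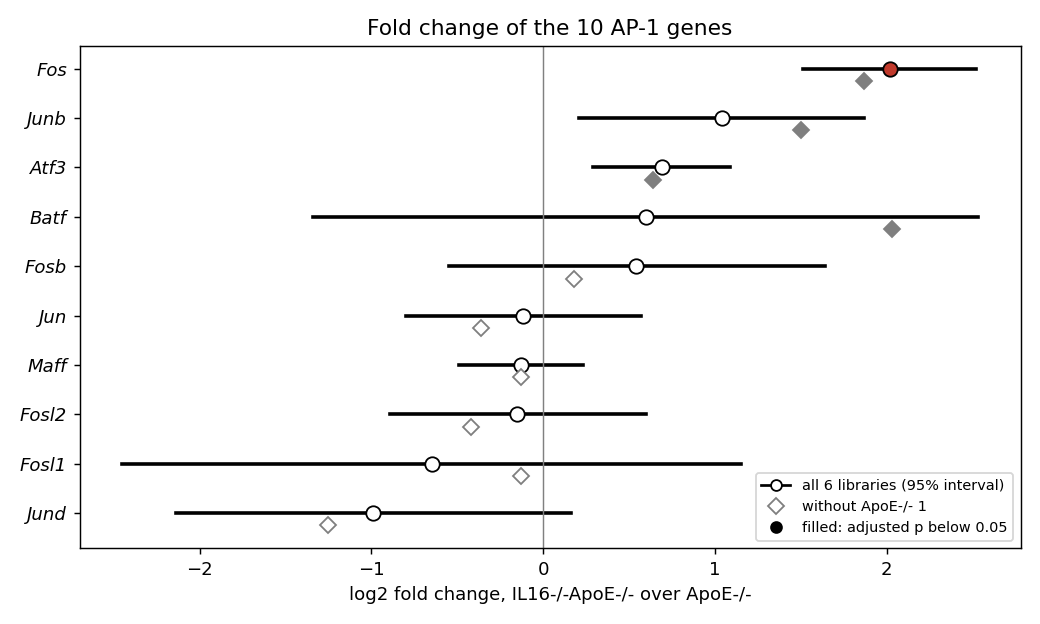
Log2 fold change of each AP-1 gene, double mutants over ApoE-/-, from edgeR with all 6 libraries (circles, with 95% intervals as lines) and without ApoE-/- 1 (diamonds); filled symbols have an adjusted p below 0.05. With all libraries Fos alone is filled, at 2.02, and without ApoE-/- 1 Fos, Junb, Atf3 and Batf are filled, at 1.87, 1.50, 0.64 and 2.03.

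Without ApoE-/- 1, the library with the female pattern, 4 of the 10 members rose, Fos, Junb, Atf3 and Batf, and 0 fell. In that fit 13.1% of all genes rose and 12.8% fell. Without ApoE-/- 2, 0 members passed (0.499% of all genes rose and 0.0346% fell), and without ApoE-/- 3 Fos alone did (0.802% and 0.0935%). DESeq2 with all libraries called 2 members higher, Fos and Atf3, and 0 lower, against 6.25% and 2.34% of all genes. Limma-voom called Fos alone, against 1.95% of all genes higher and 0.116% lower. With sample weights it called 2 members higher, Fos and Junb, and 0 lower, against 9.39% and 7.50% of all genes. Libraries within the ApoE-/- group had the larger coefficient of variation in 7 of the 10 members. It was 14.6% in double mutants and 71.0% in ApoE-/- for Jund, and 1.92% in double mutants and 110% in ApoE-/- for Batf. For Fos it was 16.2% in double mutants and 19.7% in ApoE-/-, and for Atf3 16.6% in double mutants and 6.96% in ApoE-/-.

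To compare levels between members, counts were divided by annotated transcript length and scaled to the same sum in each library (TPM). In the double mutants the order was Jund (93.0 ± 12.5 TPM), Junb (69.2 ± 5.04), Jun (60.2 ± 5.83), Fos (54.2 ± 9.43), Atf3 (52.7 ± 8.19), Fosl2 (18.3 ± 2.65), Maff (11.4 ± 0.606), Batf (5.36 ± 0.0959), Fosb (5.31 ± 0.748) and Fosl1 (0.166 ± 0.0891; SD, n = 3). Library ranges of neighbours overlapped from Junb to Atf3 and between Batf and Fosb, and not at the other steps. In ApoE-/- the order was Jund (205 ± 134 TPM), Jun (75.2 ± 28.9), Junb (37.6 ± 15.6), Atf3 (37.6 ± 8.89), Fosl2 (24.0 ± 11.6), Fos (15.4 ± 4.17), Maff (14.2 ± 2.75), Fosb (4.19 ± 2.38), Batf (3.79 ± 3.77) and Fosl1 (0.288 ± 0.125; SD, n = 3). There the ranges of neighbours overlapped except from Jund to Jun, from Maff to Fosb and from Batf to Fosl1. Fos thus stood in place 4 in double mutants and place 6 in ApoE-/-.

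The summed TPM of the 10 genes was 356 to 388 in double mutants and 281 to 569 in ApoE-/-, with overlap, but its make-up differed. Fos took 12.4%, 18.3% and 13.5% of the sum in double mutants 1, 2 and 3, against 3.79%, 4.63% and 2.97% in ApoE-/- 1, 2 and 3. The Fos family together took 19.1% to 24.3% in double mutants and 8.52% to 14.6% in ApoE-/-, and the Jun family 58.3% to 61.2% in double mutants and 68.6% to 83.0% in ApoE-/-. Neither family's share overlapped between the groups. Within the Fos family, the Fosb share did not overlap either, at 1.27% to 1.72% in double mutants and 0.56% to 1.18% in ApoE-/-. The Fosl2 share did, at 4.33% to 5.33% in double mutants and 4.21% to 8.69% in ApoE-/-. The TPM of Fosb itself overlapped, at 4.64 to 6.12 in double mutants and 1.57 to 6.24 in ApoE-/-. The summed TPM of the Jun family overlapped, at 208 to 236 in double mutants and 206 to 472 in ApoE-/-. As the shares have a fixed sum, a larger Fos share lowers the others. In ApoE-/- 3, where the sum was 569 TPM, Jund took 63.0% of it and lowered the other shares, that of Fosb included. Within a library, where scaling between libraries plays no part, the ratio of Fos to Jun was 0.764 to 1.21 in double mutants and 0.182 to 0.255 in ApoE-/-. The ratio of Junb to Jund was 0.657 to 0.933 in double mutants and 0.463, 0.276 and 0.0583 in ApoE-/- 1, 2 and 3. These shares describe the same 6 libraries as the fold changes and carry no test of their own.

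**Figure D3:**
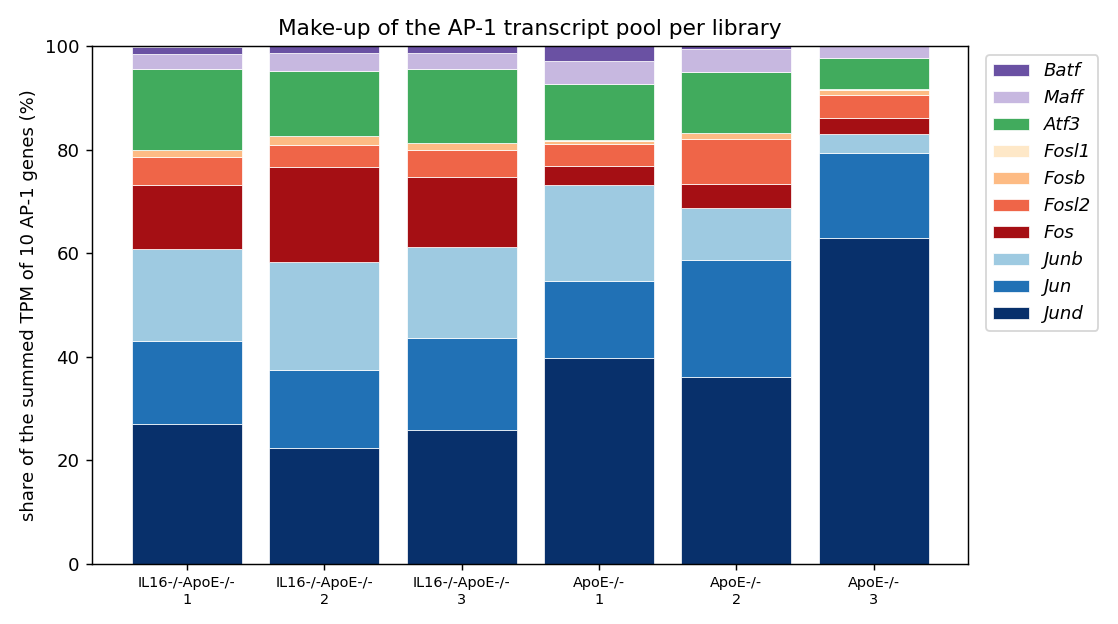
Share of each AP-1 gene in the summed TPM of the 10 genes (percent), stacked per library, with the double mutants as the 3 bars on the left and ApoE-/- as the 3 on the right. Fos (dark red) takes 12.4% to 18.3% in double mutants and 2.97% to 4.63% in ApoE-/-, and Jund (dark blue) reaches 63.0% in ApoE-/- 3.

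Across the 6 libraries, the members did not follow a single pattern. On log2 CPM, Fos had a Pearson correlation of 0.87 with Atf3, 0.71 with Junb, 0.69 with Fosb, 0.38 with Batf, and values near 0 with Jun (0.04) and Fosl2 (-0.01). It was -0.77 with Maff, -0.57 with Fosl1 and -0.48 with Jund. Junb followed Batf (0.92) and ran against Jund (-0.84), and Jun followed Fosl2 (0.89). The points share their library and its depth and fall into the 2 groups, so these values are a description. By the same measure over 11424 genes with a mean of at least 5 CPM, the genes most like Fos were Sec13, Mal, Mgp, Fam221b and S100a11 (r from 0.987 to 0.998). Of these, Mgp, the matrix inhibitor of calcification, rose to a mean of 2010 CPM in double mutants, against 541 CPM in ApoE-/- (log2 fold change 1.89, SE 0.27, edgeR adjusted p = 0.0364), and Fam221b to 64.4 CPM in double mutants, against 18.1 CPM in ApoE-/- (1.83, SE 0.20, adjusted p = 0.0205). Those most like Jun were Sfxn4, Gstm1, Gab1, Atxn1 and Hspb8 (0.987 to 0.995), and those most like Atf3 were Akap2, Rnd1, Hlf, Rps27rt and Pkhd1l1 (0.972 to 0.986). None of these 10 passed the test. The named genes were picked by their correlation with Fos, Jun or Atf3 over these same libraries. Whether they differ between the groups is therefore no independent result.

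The route that leads to AP-1 was read from lists of its other genes. Of 20 tested genes of the MAP kinase route, which passes growth factor and stress signals to Fos and Jun, 0 rose and 0 fell, with a median log2 fold change of -0.08. The smallest p were those of Mapk11, a p38 kinase, at 9.17, 9.66 and 8.73 CPM in double mutants against 4.15, 2.70 and 2.55 CPM in ApoE-/- (log2 fold change 1.55, SE 0.28, edgeR adjusted p = 0.0672) and of Mapk10, a JNK kinase of neurons, at 1.23 to 3.27 CPM in double mutants and 0.0994 to 0.859 CPM in ApoE-/- (log2 2.49 with an SE of 0.86, adjusted p = 0.246). The 5 Schwann cell markers, all detected, summed to 147 to 191 CPM in double mutants and 32.3 to 59.9 CPM in ApoE-/-, and their part in the Mapk10 value was not tested. Of 9 genes of the serum response factor route, which switches on Fos transcription, 0 passed in either direction (median -0.04). The first by p were Elk3, an Ets partner of that factor, at 54.3 to 60.4 CPM in double mutants and 34.9 to 49.3 CPM in ApoE-/- (0.46, SE 0.17, adjusted p = 0.261), and Myocd, its smooth muscle coactivator, at 9.82 to 20.3 CPM in double mutants and 9.61, 54.6 and 51.1 CPM in ApoE-/- 1, 2 and 3 (-1.29, SE 0.64, adjusted p = 0.375). Myocd in ApoE-/- was low in the library that was also low in smooth muscle markers. Of 10 dual-specificity phosphatases, which switch MAP kinases off, 0 passed in either direction (median 0.23). Dusp7 was at 19.1 to 22.9 CPM in double mutants and 28.9 to 30.4 CPM in ApoE-/- (-0.48, SE 0.14, edgeR adjusted p = 0.194) and Dusp9 at 0.652 to 1.20 CPM in double mutants and 0 to 0.131 CPM in ApoE-/- (3.50, SE 1.12, adjusted p = 0.221).

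Other basic leucine zipper genes showed no call. Of 20 tested partners and relatives 0 passed in either direction, and the median log2 fold change was -0.06. Atf2, a Jun partner at cyclic AMP response elements, was at 49.7 to 56.4 CPM in double mutants and 62.9 to 71.8 CPM in ApoE-/- (-0.39, SE 0.14, edgeR adjusted p = 0.251), and Creb1, the cyclic AMP response factor, at 44.3 to 51.7 CPM in double mutants and 52.4 to 89.1 CPM in ApoE-/- (-0.54, SE 0.22, adjusted p = 0.295). Both had every double mutant library below every ApoE-/- library, without passing. In the list this held for 3 of 20, against 11.5% of all genes, and 2 of 20 lay above, against 14.9%.

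Genes induced alongside Fos or known as AP-1 targets had mostly positive fold changes, with 0 past the threshold. Of 25 tested immediate early genes outside AP-1, 16 had a positive fold change (46.4% of all genes did), 0 rose, 0 fell, and the median log2 value was 0.23. Ier2 came nearest, at 33.7, 36.0 and 37.0 CPM in double mutants against 20.5, 17.2 and 20.5 CPM in ApoE-/- (log2 fold change 0.87, SE 0.15, edgeR adjusted p = 0.0525). Zfp36, which encodes the mRNA decay factor tristetraprolin, was at 91.4, 96.8 and 94.6 CPM in double mutants against 46.7, 43.3 and 64.9 CPM in ApoE-/- (0.87, SE 0.19, adjusted p = 0.105). In neither did the groups overlap. Of the 25 genes, 6 had every double mutant library above every ApoE-/- library, against 14.9% of all genes. In 0 of them was every one below, against 11.5%, and 26.4% of all genes did not overlap in either direction. An unadjusted edgeR p below 0.05 was reached by 4 of the 25, against 3154 of all 19833 genes. Of 24 tested AP-1 target genes, 21 had a positive fold change, 0 rose and 0 fell, with a median log2 value of 0.88. In 14 of the 24 every double mutant library lay above every ApoE-/- library, against 14.9% of all genes. The list was chosen with earlier results of these data known. Among the cell type lists the same held for 6 of 6 endothelial and 5 of 5 Schwann cell markers. So it did for 8 of 8 kidney tubule, 6 of 6 skeletal muscle and 6 of 6 cardiac muscle markers. It held for 3 of 5 red cell, 3 of 4 tested neutrophil and 2 of 4 B cell markers. The numbers were 2 of 5 for adipocyte, 2 of 6 for fibroblast and 1 of 6 for T cell markers. It held for 1 of 6 macrophage and 0 of 6 smooth muscle markers. Cxcl1, a neutrophil attractant, was at 21.5, 20.2 and 20.9 CPM in double mutants against 7.75, 7.79 and 4.18 CPM in ApoE-/- (1.67, SE 0.28, edgeR adjusted p = 0.0529), and Timp1, the metalloproteinase inhibitor, at 147, 202 and 163 CPM in double mutants against 35.7, 42.0 and 11.2 CPM in ApoE-/- (2.53, SE 0.49, adjusted p = 0.0820). Ier2 and Cxcl1 lie next to the threshold and passed in some alternatives. The 6 endothelial markers summed to 1160 to 1200 CPM in double mutants and 589 to 993 CPM in ApoE-/-, with 0 at no count, and 0 of the 6 passed. The part of endothelial and macrophage content in the target genes was not tested.

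**Figure D4:**
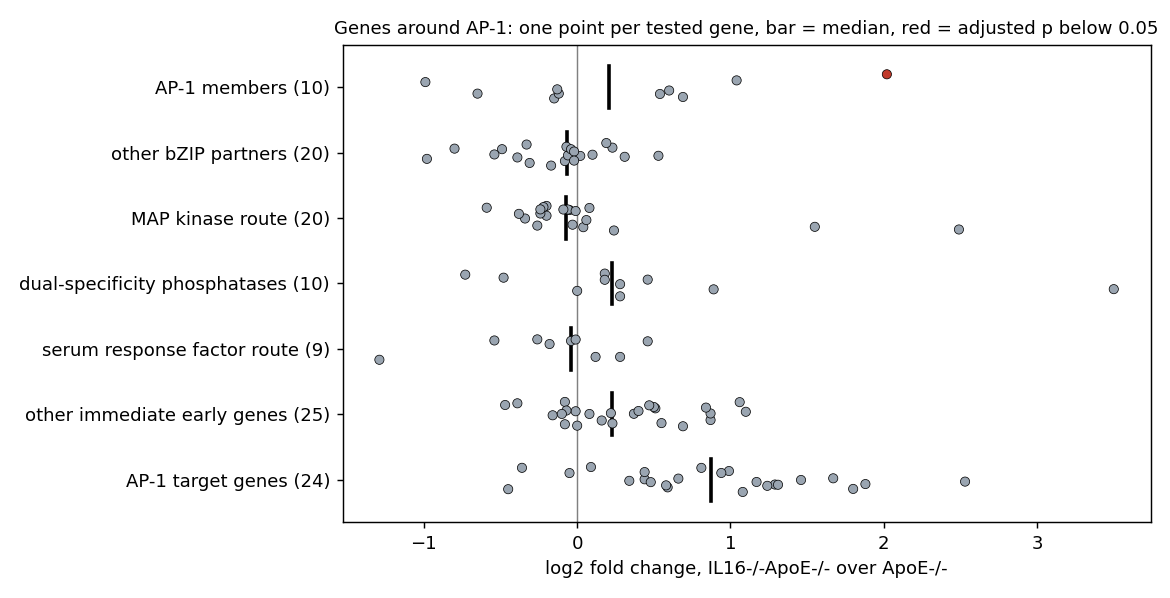
Log2 fold change, double mutants over ApoE-/-, of every tested gene in the AP-1 gene set and 6 lists of genes around it (number tested in brackets); each point is a gene, the black bar is the list's median and red marks an adjusted p below 0.05. Fos is the red point, the medians of the MAP kinase, serum response factor and basic leucine zipper lists are between -0.08 and -0.04, and that of the AP-1 target genes is 0.88.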

How the data were processed

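RNA of 6 mouse aorta samples was captured by its poly(A) tail and made into strand-marking libraries, per the labels' protocols. The authors deposited 1 table of raw read counts per Ensembl gene, without normalization. Cutadapt, HISAT2 and StringTie are named per the submitters' processing notes. Neither the genome build and annotation nor the counting program and its strand option is given in the sources used here. Symbols, positions and lengths (median over basic transcripts) come from GENCODE M21 (GRCm38), which held 55141 of the 55401 IDs.

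Genes were kept by filterByExpr (minimum count 10, minimum total 15), scaled by TMM and compared with edgeR's quasi-likelihood test (two-sided, robust, no covariate, Benjamini-Hochberg over all 19833 genes, threshold 0.05). Intervals are 95% intervals of the log2 fold change, and log2 CPM used a prior count of 2. The fits were also run on simulated data with an equal spread in both groups. The measured spread was unequal (biological coefficient of variation 0.209 in double mutants and 0.590 in ApoE-/-), and that run does not cover it. The 16 alternatives changed the scaling, filter, tool, replicate block, length trend or left out 1 library. R 4.3.3, edgeR 4.0.16, limma 3.58.1, DESeq2 1.42.0, Python 3.11.15 and matplotlib 3.10.9 were used.

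Promoter motifs were read in the 250 bases before the start site in place of the whole RefSeq promoter entry, so as to leave out transcribed bases. The members and lists were chosen with earlier results of these data known. All members are named, and from each list up to 4 genes past the threshold, or the 2 with the smallest p where none passed. For Fos, Jun and Atf3 the 5 most correlated genes are named. Of the lists, 1 gene of the basic leucine zipper list, Ddit3, matched more than 1 ID and was not used, and Egr4 and Areg were below the filter.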

Additional observations from a re-analysis of the deposited data

How the results depend on the processing

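Of 159 member values under the alternatives, 146 kept their direction and side of the threshold, 5 gained a call, 5 lost one (all Fos) and 3 changed sign, Fosl2 (0.08 with the length trend removed, -0.42 to 0.06 with 1 library left out) and Jun (-0.36 to 0.15 with 1 library left out); the causes were not tested. The number of members called higher was 2 in DESeq2 and with sample weights, 0 with the replicate block and 0 to 4 with 1 library left out; none was called lower. Over all genes the higher and lower counts were 1235 and 462 in DESeq2, 386 and 23 in limma-voom, 1863 and 1488 with sample weights, 143 and 21 with the length trend removed, 0 and 0 with the replicate block, and 0 to 2651 and 0 to 2580 with 1 library left out. Same-numbered libraries did not deviate together (r from -0.0400 to -0.0095), and 0 of 3 double mutant libraries was closest to its own number. With 3 libraries in each group, this check cannot exclude a pairing by number.

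For the lists, in which 0 genes passed in the test reported above, upper-quartile factors and the filter of at least 1 CPM each called 1 immediate early gene (Ier2) and 1 target gene (Cxcl1), library totals 1 immediate early gene and no filter 1 target gene. DESeq2 called higher 2 MAP kinase, 1 phosphatase, 4 immediate early and 4 target genes, and lower 1 phosphatase. Limma-voom called higher 1 MAP kinase, 1 immediate early and 1 target gene. Sample weights called higher 1 MAP kinase, 1 serum response, 6 immediate early and 8 target genes, and lower 2 leucine zipper, 1 MAP kinase, 1 serum response and 1 immediate early gene. With 1 library left out the counts higher were 0 to 2 (MAP kinase), 0 to 1 (serum response), 0 to 5 (immediate early) and 0 to 8 (targets), and lower 0 to 2 (leucine zipper, MAP kinase, phosphatase, serum response and immediate early) and 0 to 1 (targets), the highest of each without ApoE-/- 1. Fosl1, with 5 to 43 counts a library, was not tested under the filter of at least 1 CPM. The replicate block left Fos at a log2 fold change of 2.02 with an adjusted p of 0.179.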
